A study of Ovis aries and Bos taurus with 10 samples.

Results

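Mitochondrial ribosomal proteins were followed in sheep oocytes and granulosa cells (GC) from primordial to secondary follicles. They were taken as all genes whose chip annotation symbol reads MRPL or MRPS with a number and, in some, a closing letter, which gave 67 genes of the 9155 with a symbol. Of the 67 genes, 43 were MRPL and 24 MRPS. They were read by 84 probe sets, and 14 genes had several, of which the one with the highest mean over the 6 captured arrays was used. The sheep RefSeq annotation ARS-UI_Ramb_v3.0 holds 75 protein-coding genes of this pattern, and 64 of the 67 are among them.

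The mitochondrial ribosome translates the few messages of the mitochondrial genome, all of which code for subunits of the oxidative phosphorylation complexes. Its RNAs are made in the mitochondrion, but every protein of its large and small subunit is coded in the nucleus, made in the cytosol and imported. Part of these proteins have a counterpart in the bacterial ribosome, and the rest were gained with the mitochondrial one. Oocytes hold large numbers of mitochondria, and these build up while the oocyte grows. By symbol and structure, 45 of the 67 genes code for large subunit proteins and 21 for small subunit proteins, and MRPS36 was put in neither. MRPS30 and MRPS18A were counted with the large subunit despite their names. A bacterial counterpart was assigned to 38 genes and none to 29. These classes were set by hand from general knowledge and are open to dispute for some genes. MRPS18B, for example, was counted with a counterpart and MRPS18A without.

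Captured cells came from ovaries of new-born lambs under 1 day old and were cut out by laser. They gave 1 array each for oocytes of primordial (PDO), primary (PMO) and secondary (SECO) follicles and for GC of the same follicle stages (PDG, PMG and SECG). Each array held a pool of 2 animals at the primordial and secondary stages and of 4 animals at the primary stage, after 2 rounds of T7 amplification and Arcturus turbo labelling. The other 4 arrays held whole fetal ovary. Ovine ovary of 132 days post coitum was labelled with the standard single round of Affymetrix amplification (P1), with 2 rounds and Affymetrix labelling (P2) or with the protocol of the captured cells (P3), and bovine ovary of 8 months post coitum was labelled with P1. The chip was the Bovine Genome Array of Affymetrix throughout, so that sheep RNA met bovine probes. No condition had a replicate array. The 3 stages stood in for replicates between compartments. In the test between stages the 2 compartments, oocytes and GC, stood in for replicates of a stage. Differences between single arrays have no replicate check.

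A signal is the scaled brightness of a probe set, and differences are given on the log2(signal + 20) scale, which understates the change of dim genes. A gene was called detected on an array where its signal passed the limit set for that array, which lay between 45.8 and 74.2 on captured arrays and between 28.9 and 44.7 on fetal ones. Median signals of the 10 arrays lay between 25.15 and 40.8. Markers followed the labels only in part. Of 10 oocyte markers on the array 4 were higher in the oocyte at all 3 stages. The summed signal of the 10 was 12795, 10820 and 5385 in PDO, PMO and SECO, and 6093, 8118 and 4729 in PDG, PMG and SECG. The sum of SECO thus lay below those of PDG and PMG. At the secondary stage ZP2 (-1.53) and ZP4 (-0.97) were lower in the oocyte, and MAEL (2.46) and JAG1 (1.11) were higher. Of 10 GC markers 3, FST, INHA and AMH, were higher in GC at all 3 stages. The sums over the 10 were 274 to 760 in oocytes and 772 to 2551 in GC. KITLG, AMH, FOXL2, FSHR and CYP19A1 were detected on no captured array, so that AMH, 1 of the 3, rested on undetected signals. Stroma markers summed to 4369 to 15749 in oocytes and 12698 to 47047 in GC, with the highest sum in PDG. SECO stood apart in red blood cell markers, with a sum of 3885 that came almost wholly from HBB, against 61.1 to 487 on the other captured arrays. The ratio of the 3′ to the 5′ GAPDH probe sets was 328 in SECO and 10.6 to 31.3 on the other captured arrays. The part of these cells and of RNA quality in the results was not tested, and a different share of cells cannot be told apart from a different amount of RNA per cell.

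Most mitochondrial ribosomal protein genes, 54 of the 67, were detected in both compartments, and 5147 of all 9155 genes were. Of the 67 genes 60 (89.6%) were detected on at least 1 of the 6 captured arrays, and of all 9155 genes 68.6% were. On all 6 captured arrays 37 (55.2%) were detected, and 34.8% of all genes. PDO detected 55 of the 67, PMO 43, SECO 48, PDG 47, PMG 45 and SECG 52. Of all 9155 genes these arrays detected 4818, 4256, 4617, 5053, 4293 and 5003, so that both counts were lowest at the primary stage. In fetal ovary under P1 57 (ovine) and 64 (bovine) were detected, and the ovine arrays of P2 and P3 detected 52 and 53. Of all genes these 4 arrays detected 6219, 6694, 5442 and 5370. The bovine array had the highest count, for these genes as for all genes. Limits followed the share of present calls that the study lists for each array, and the bovine limit of 28.9 was the lowest. Whether the match of RNA and probe species had a part in this count was not tested.

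Some genes passed the limit in 1 compartment only or in none. MRPL30, MRPL53, MRPL55, MRPS5 and MRPS35 passed it on oocyte arrays only, each on PDO alone, and MRPL14 on GC arrays only. Of all 9155 genes 453 passed it on oocyte arrays only and 684 on GC arrays only. The limits differed between arrays, with 52.2 in PDO and 72.1 in PMG. MRPL53 thus passed at 63.7 in PDO and did not at 62.1 in PMG. No gene passed it on all 3 arrays of one compartment and on none of the other. MRPL15, MRPL36, MRPL38, MRPL46, MRPS2, MRPS9 and MRPS18A passed it on no captured array, and their signals there lay between 1.07, for MRPS9 in PDG, and 65.5, for MRPS2 in PMG. Of these, MRPL15 read 35.8 in ovine and 166 in bovine fetal ovary under P1, and MRPL36 read 37.5 and 131. MRPL38 (130.9 and 112.7) and MRPS18A (90.0 and 36.1) were higher in the ovine sample. MRPL46, MRPS2 and MRPS9 read between 2.2 and 23.3 in both. A low reading of a sheep sample on a bovine probe cannot be told apart from a low level of the RNA.

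The first comparison set oocytes against GC of the same follicle stage; the labels tie the arrays by stage only, not by follicle or animal. Mitochondrial ribosomal proteins lay on the whole somewhat higher in oocytes of primordial and primary follicles, and the 2 compartments lay close to each other in secondary follicles. The summed oocyte markers also differed least at the secondary stage, with 5385 in SECO and 4729 in SECG, and the part of this was not tested. The median difference, oocyte minus GC, over all 67 genes was 0.32 at the primordial, 0.38 at the primary and 0.089 at the secondary stage. Over all 9155 genes it was 0.040, 0.024 and 0.059. Higher in the oocyte were 50 of the 67 at the primordial stage (all genes 52.6%), 44 at the primary stage (51.4%) and 37 at the secondary stage (54.2%). The mean over the 3 stages was above 0 for 48 genes, with a median of 0.31 against 0.050 for all genes.

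**Figure D1:**
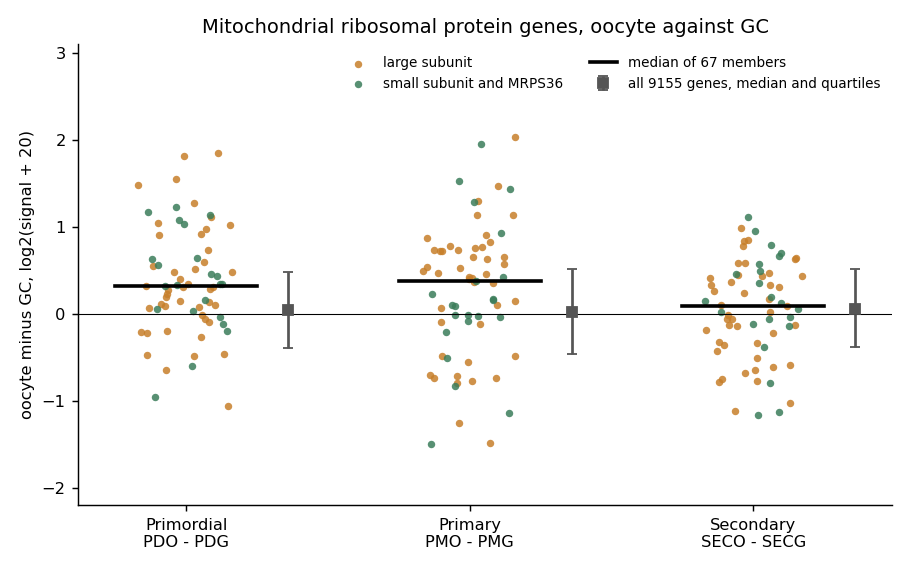
Difference between oocyte and GC of the same follicle stage for each of the 67 mitochondrial ribosomal protein genes, on the log2(signal + 20) scale; points are genes of the large subunit (orange) and of the small subunit with MRPS36 (green), black bars are their medians and grey squares the median and quartiles of all 9155 genes. The median lies at 0.32 at the primordial, 0.38 at the primary and 0.089 at the secondary stage, and genes spread to both sides of 0 at each stage.

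Counts past 2-fold leaned toward the oocyte at the primordial stage, and at the primary stage they lay nearer those of all genes. At the primordial stage 13 genes (19.4%) were at least 2-fold higher in the oocyte and 1 (1.49%) at least 2-fold lower, against 7.08% and 7.21% of all genes. At the primary stage 9 (13.4%) were higher and 4 (5.97%) lower, against 10.6% and 9.83%. At the secondary stage 1 (1.49%) was higher and 4 (5.97%) were lower, against 9.58% and 7.05%. The oocyte was higher at all 3 stages for 23 genes (34.3%), and for 18.5% of all genes. GC were higher at all 3 stages for 7 genes (10.4%), and for 14.5% of all genes. Without the secondary stage, and so without SECO, the oocyte was higher at both other stages for 38 genes (56.7%) and GC for 11 (16.4%), against 31.6% and 27.5% of all genes. Among the 39 genes with a mean signal of at least 100 over the 6 arrays the median was 0.33, 0.49 and 0.13 from the primordial to the secondary stage, against 0.067, 0.057 and -0.0085 for the 3353 genes as bright.

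No single gene passed the test. The linear model of limma, with compartment and stage as terms, was fitted to the 11642 probe sets detected on at least 1 captured array, and 60 of the 67 genes entered it. At an adjusted p under 0.05 it called 0 of the 60 (0% of all probe sets), and the smallest adjusted p among them in limma was 0.413. At an unadjusted p under 0.05 it held 6 genes higher and 1 lower in the oocyte, and 11.1% of all probe sets in either direction. With 3 stages an exact two-sided test of a single gene cannot fall below 0.25. Signals of the 2 compartments did not overlap for 6 genes higher in the oocyte (all genes 7.56%) and 2 genes higher in GC (6.08%), so that complete separation was about as common as among all genes.

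The genes with the largest differences toward the oocyte belonged to both subunits. MRPS15, a small subunit protein with a bacterial counterpart, read 3111 in PDO, 3892 in PMO and 1558 in SECO, and 1510, 1430 and 1104 in PDG, PMG and SECG. All oocyte arrays lay above all GC arrays, and the mean difference was 0.99 (SE 0.33, limma adjusted p = 0.414). MRPL16, which lies close to the centre of peptide bond formation, read 6033, 1632 and 1096 in oocytes and 2052, 985 and 703 in GC from the primordial to the secondary stage. Its oocyte signal was the higher at each stage while the ranges overlapped, since it was lower at each later stage in both compartments. Its mean difference was 0.96 (SE 0.33, limma adjusted p = 0.414).

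MRPS30, a large subunit protein of the mitochondrial ribosome, read 1179, 824 and 310 in PDO, PMO and SECO, and 535, 365 and 272 in PDG, PMG and SECG. The gap closed at the secondary stage, where the difference was 0.18 after 1.11 and 1.13. MRPL48, which has no bacterial counterpart in the classes used, read 485, 255 and 274 in oocytes and 224, 154 and 177 in GC. All its oocyte signals lay above all its GC signals. MRPL58, known also as ICT1, frees stalled mitochondrial ribosomes by cutting the peptide from its tRNA, and read 300.3, 399 and 173 in oocytes and 192, 232 and 77.3 in GC. Its difference was 0.60, 0.73 and 0.99 at the 3 stages, with a mean of 0.77 (SE 0.30, limma adjusted p = 0.426).

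MRPL12, a protein of the large subunit stalk that has also been reported to bind the mitochondrial RNA polymerase, had the largest mean difference toward the oocyte, 1.18 (SE 0.39, limma adjusted p = 0.413). It read 70.6, 67.5 and 136 in PDO, PMO and SECO, and 5.70, 11.6 and 112 in PDG, PMG and SECG. PMO, PDG and PMG lay under their limits of detection, and at the secondary stage both compartments were detected with a difference of 0.24. Its difference at the earlier stages thus set a signal near the limit against one below it, and its mean was 2.05 with a constant of 1 and 0.75 with one of 50.

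Genes higher in GC at all 3 stages were fewer, and 5 of them were detected in both compartments. MRPL57, a small protein of the large subunit also called MRP63, read 23.5, 42.8 and 99.1 in oocytes and 32.1, 129 and 238 in GC. Both compartments were below the limit at the primordial stage, and the mean difference was -0.87 (SE 0.34, limma adjusted p = 0.423). MRPL41, a large subunit protein also studied for a link to BCL2 and cell death, read 15.8, 26.9 and 168 in oocytes and 21.4, 60.2 and 296 in GC. It was detected in neither compartment before the secondary stage, where the difference was -0.75, and the mean was -0.58 (SE 0.31, limma adjusted p = 0.524).

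The remaining genes higher in GC were detected at more stages, but each rested on part of the stages. MRPS27, a small subunit protein of the pentatricopeptide repeat kind, read 65.8, 193 and 57.6 in oocytes and 146, 195 and 153 in GC. It had no gap at the primary stage (-0.0092). Its largest gap, -1.16 at the secondary stage, rested on a SECO signal under the limit of 67.6. MRPL27 read 297, 107 and 239 in oocytes and 310, 334 and 329 in GC, and its mean of -0.65 was -0.24 without the primary stage. MRPL45, which helps hold the ribosome at the inner membrane, read 320, 217 and 411 in oocytes and 324, 375 and 472 in GC, and its mean of -0.31 was -0.10 without the primary stage.

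**Figure D2:**
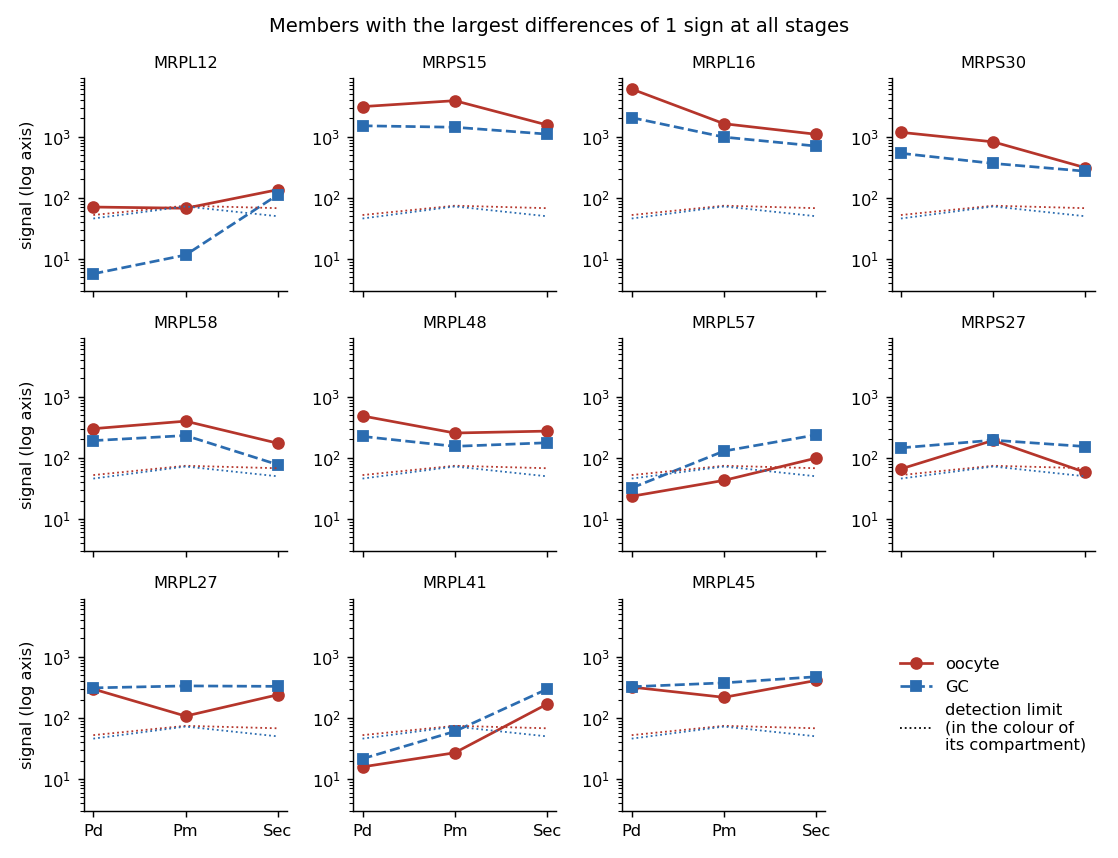
Signals (log axis) of the 11 genes with the largest mean differences of 1 sign at all 3 stages, in oocytes (red circles) and GC (blue squares) of follicles at the primordial (Pd on the axis), primary (Pm) and secondary stage (Sec), 1 array each; dotted lines are the limits of detection of each array. MRPS15 and MRPL48 keep all oocyte signals above all GC signals, MRPL16 and MRPS30 are lower at each later stage in both compartments, and MRPL41 and MRPL57 start below the limit in both.

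By subunit and by origin of the protein the medians over the 3 stages lay close to each other. The mean difference, oocyte minus GC, had a median of 0.36 over the 45 large subunit genes and of 0.27 over the 21 small subunit genes, with 31 and 16 genes above 0. It had a median of 0.32 over the 38 genes with a bacterial counterpart and of 0.30 over the 29 without, with 27 and 21 genes above 0. The classes differed most within single stages. At the primary stage the median was 0.47 for large and 0.087 for small subunit genes, and at the secondary stage it was -0.019 with and 0.31 without a bacterial counterpart. No test of these differences was made, since genes are not replicates.

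Lists of related genes were set beside the ribosomal proteins. The first held genes of mitochondrial gene expression, for the most part translation and ribosome assembly factors, and had a median mean difference of 0.31, with 29 of 44 genes on the array above 0. Of these, 5 code for ribosomal proteins that do not carry the family name (median 0.40, 3 above 0), and 5 serve replication or transcription of mitochondrial DNA (0.025, 3 above 0). The other 34 had a median of 0.33, with 23 above 0. Subunits of oxidative phosphorylation had 0.17, with 56 of 80 above 0. Cytosolic ribosomal proteins, which make up the other ribosome of the cell, had 0.0085, with 36 of 67 above 0. Their median was -0.15 at the primordial and 0.14 at the secondary stage, whereas that of the mitochondrial proteins was the higher at the primordial stage.

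**Figure D3:**
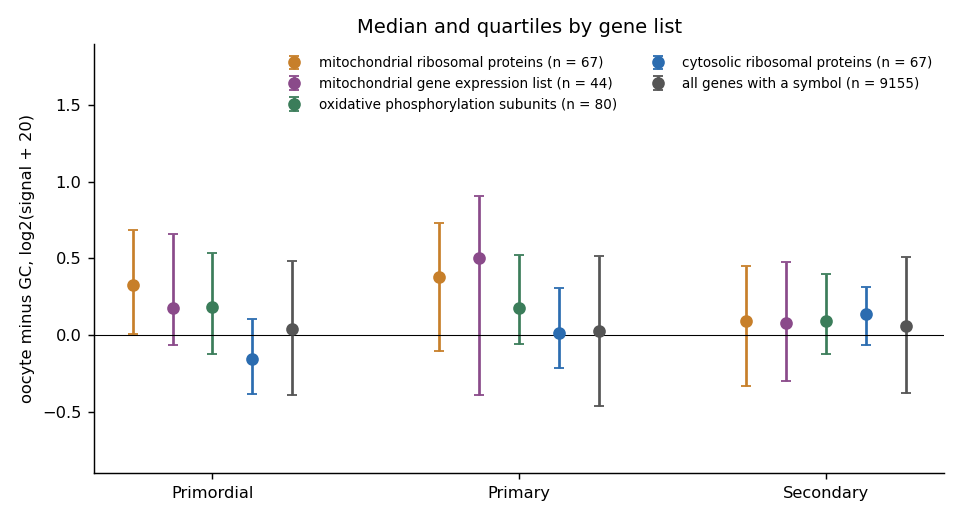
Oocyte minus GC difference by follicle stage on the log2(signal + 20) scale; points are the median over genes and bars the quartiles for the 67 mitochondrial ribosomal proteins, 44 genes of mitochondrial gene expression, 80 oxidative phosphorylation subunits, 67 cytosolic ribosomal proteins and all 9155 genes. The mitochondrial lists lie above the median of all genes at the primordial and primary stages, and all medians lie between 0 and 0.14 at the secondary stage.

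In limma 0 of 33 genes of the mitochondrial gene expression list tested passed an adjusted p of 0.05 (0% of all probe sets), and at an unadjusted p under 0.05 there were 7 higher and 2 lower in the oocyte (11.1% of all probe sets in either direction). The largest differences of this list lay in both directions. MTFMT, which formylates the initiator methionyl-tRNA of mitochondria, read 89.6, 35.9 and 201 in oocytes and 210.3, 410 and 277 in GC, with a mean difference of -1.48 (SE 0.49, limma adjusted p = 0.413). Its PMO signal lay under the limit of detection. SARS2, the mitochondrial seryl-tRNA synthetase, read 102, 102 and 74.5 in oocytes and 10.7, 9.88 and 64.4 in GC, with a mean of 1.39. Its PDG and PMG signals lay under their limits, and at the secondary stage, detected in both compartments, the difference was 0.16. AURKAIP1, a small subunit protein of the mitochondrial ribosome that does not carry the family name, read 96.1, 142 and 101 in oocytes and 53.2, 10.6 and 44.7 in GC, with a mean of 1.32. Its PMG and SECG signals lay under their limits. TFB1M, which methylates the ribosomal RNA of the small subunit, read 299, 409 and 155 in oocytes and 151, 146 and 45.4 in GC. All its oocyte signals lay above all its GC signals, SECO only just above PDG, and its mean difference was 1.23 (SE 0.31, limma adjusted p = 0.406). Its SECG signal lay under the limit of detection.

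The second comparison set secondary against primordial follicles. Mitochondrial ribosomal proteins parted into genes that were lower and genes that were higher at the secondary stage, and most often in the same direction in oocytes and GC. The median of the fit over all 67 genes, secondary minus primordial, was -0.21 with 27 genes above 0, and 0.046 over all genes. In oocytes alone (SECO minus PDO) it was -0.25 with 25 genes above 0 (all genes 0.079 and 55.1%), and in GC alone (SECG minus PDG) 0.078 with 35 above 0 (all genes 0.018 and 51%). Without SECO the median of the fit was -0.040. Lower at the secondary stage in both compartments were 28 genes (41.8%), and 25.8% of all genes. Higher in both were 21 genes (31.3%), and 31.9% of all genes.

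In oocytes 7 genes were at least 2-fold higher (all genes 12.1%) and 14 at least 2-fold lower (9.19%) at the secondary stage, and in GC 9 were higher (9.25%) and 5 lower (7.22%). Across the 67 genes the oocyte and the GC differences, which share no array, correlated at r = 0.66 (Spearman's rho 0.60), and across all 9155 genes at 0.27 (0.24). This is across genes, which are not independent replicates. PDO, PDG, SECO and SECG also enter the comparison of compartments, so the smaller gap between oocyte and GC at the secondary stage and the lower oocyte signals there are read from the same arrays. The ratio of the 3′ to the middle GAPDH probe sets also differed between stages, and was 13.8, 19.8 and 25.2 in PDO, PMO and SECO and 13.9, 21.1 and 18.5 in PDG, PMG and SECG. Its part in these differences was not tested.

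**Figure D4:**
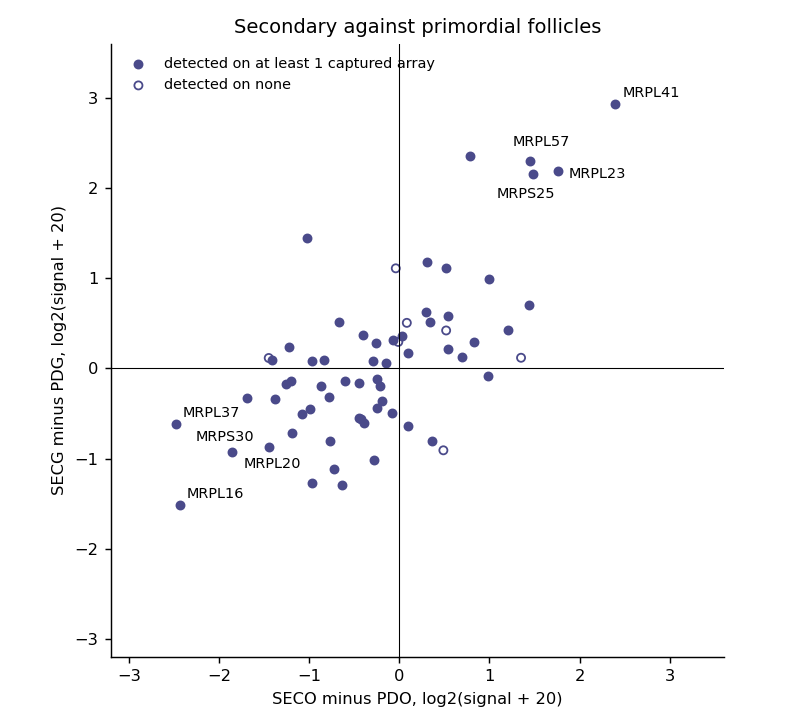
Secondary minus primordial difference of each of the 67 genes in oocytes (x axis) and in GC (y axis), on the log2(signal + 20) scale; filled points are genes detected on at least 1 captured array and open points genes detected on none. Most points lie in the lower left (28) or upper right (21) corner, with MRPL41 at the upper and MRPL16 at the lower end.

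In limma 0 of the 60 genes tested passed an adjusted p of 0.05 for stage (0% of all probe sets), and the smallest adjusted p was 0.238. At an unadjusted p under 0.05 there were 7 genes higher and 8 lower at the secondary stage, and 11.4% of all probe sets in either direction. For primary minus primordial limma also called 0 (0%), with 1 gene higher and 3 lower at an unadjusted p under 0.05 (6.55% of all probe sets) and a smallest adjusted p of 0.740. The result for secondary follicles depended on how the spread was modelled. With an intensity trend in the variance limma called 3 of the 60, MRPL16 (adjusted p = 0.037), MRPL23 (0.047) and MRPL41 (0.037), among 67 probe sets in all. With a constant of 50 in place of 20 it called MRPL16 and MRPL41, and without the primary stage MRPL41.

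MRPL41 had the largest difference, 2.66 (SE 0.38, limma adjusted p = 0.238), with 2.40 in oocytes and 2.93 in GC. Its signal went from 15.8 in PDO and 21.4 in PDG, both below the limit, to 168 in SECO and 296 in SECG, both above it. MRPL57 and MRPS25, the latter a small subunit protein, also came from below the limit. MRPL57 differed by 1.88 (SE 0.41, limma adjusted p = 0.238), but by 0.23 on its other probe set, which was detected on 3 captured arrays, and by 1.05 with the mean of both. MRPS25 read 16.0, 25.9 and 80.5 in oocytes and 3.08, 33.0 and 82.9 in GC, a difference of 1.82 that was 3.31 with a constant of 1 and 1.15 with one of 50. MRPL23, which lies at the exit of the peptide tunnel, was detected throughout with 160, 232 and 591 in oocytes and 149, 141 and 752 in GC. It was at its highest in secondary follicles of both compartments, by 1.98 (SE 0.41, limma adjusted p = 0.238). Its other probe sets gave 0.99 and 0.86, and the mean of all of them 1.28.

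The 4 genes with the largest differences toward primordial follicles were detected on all 6 arrays. MRPL16 differed by -1.98 (SE 0.41, limma adjusted p = 0.238), by -2.44 in oocytes and -1.52 in GC. MRPL37, which has no bacterial counterpart in the classes used, read 1447, 847 and 243 in oocytes and 587, 334 and 376 in GC. It was lower by 2.48 on the log2 scale in SECO than in PDO and by 0.61 in SECG than in PDG. Its difference in the fit was -1.55, and -0.61 without SECO. MRPS30 differed by -1.39 in the fit, and by -0.92 without SECO. MRPL20, a large subunit protein with a bacterial counterpart, differed by -1.16 in the fit. MRPL20 read 2300, 1938 and 831 in oocytes and 1598, 1158 and 866 in GC, lower at each later stage in both.

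Among the 39 genes with a mean signal of at least 100, 24 (61.5%) were lower in both compartments at the secondary stage and 9 (23.1%) higher in both, against 33.3% and 30.7% of the 3353 genes as bright. Their median was -0.43 in oocytes and -0.31 in GC. The negative median in GC thus belonged to the brighter genes, and over all 67 genes it was above 0.

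The third comparison used whole fetal ovary to see how the labelling protocol and the species of the RNA move the signals. Between P3, the protocol of the captured cells, and P1 the genes differed in both directions, about as often as all genes. The median of P3 minus P1 over the 67 was 0.032, against 0.021 for all genes, with 11 genes at least 2-fold higher (all genes 12.8%) and 9 at least 2-fold lower (14%) under P3. For P2 minus P1 the median was -0.047, against 0.051, with 9 higher (10.5%) and 7 lower (12.1%). These are single arrays with no test, and both share the P1 array. The ratio of the 3′ to the middle GAPDH probe sets was 0.80 in the P1 sample and 10.8 and 15.0 after the P2 and P3 protocols.

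Single genes differed widely between protocols. MRPS15 read 298 under P1, 1188 under P2 and 1460 under P3, a difference of 2.22 between P3 and P1. MRPL41 read 151, 432 and 715, and MRPL52, a large subunit protein, 341, 900.1 and 1338. All 3 lay higher on both amplified arrays. MRPL58 read 732, 167 and 133 under P1, P2 and P3, a difference of -2.30 between P3 and P1. MRPL55 read 251, 36.3 and 54.5, and MRPL3 168, 129 and 47.5, the first low on both amplified arrays and the second on P3 alone. MRPL41, at 715 under P3, was below the limit on 4 of the 6 captured arrays labelled the same way.

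Ovine and bovine fetal ovary under P1 differed widely in single genes, and for MRPL53 by more than any difference by compartment or stage given above. The median of ovine minus bovine was 0.054, against 0.021 for all genes, with 11 genes at least 2-fold higher (all genes 10.5%) and 14 at least 2-fold lower (13.9%) in the ovine sample. MRPL37 read 1759 in ovine and 260 in bovine ovary, MRPL42 701 and 140, and MRPL2, a protein near the centre of peptide bond formation, 386 and 86.9. Lower in the ovine sample were MRPL53, with 24.0 against 549, MRPL9, with 132 against 926, and MRPL34, with 17.5 against 154. Their differences were -3.69, -2.63 and -2.22. Species, age and the match of sheep RNA to bovine probes cannot be told apart here, while comparisons between captured arrays read the same probes with RNA of 1 species.

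**Figure D5:**
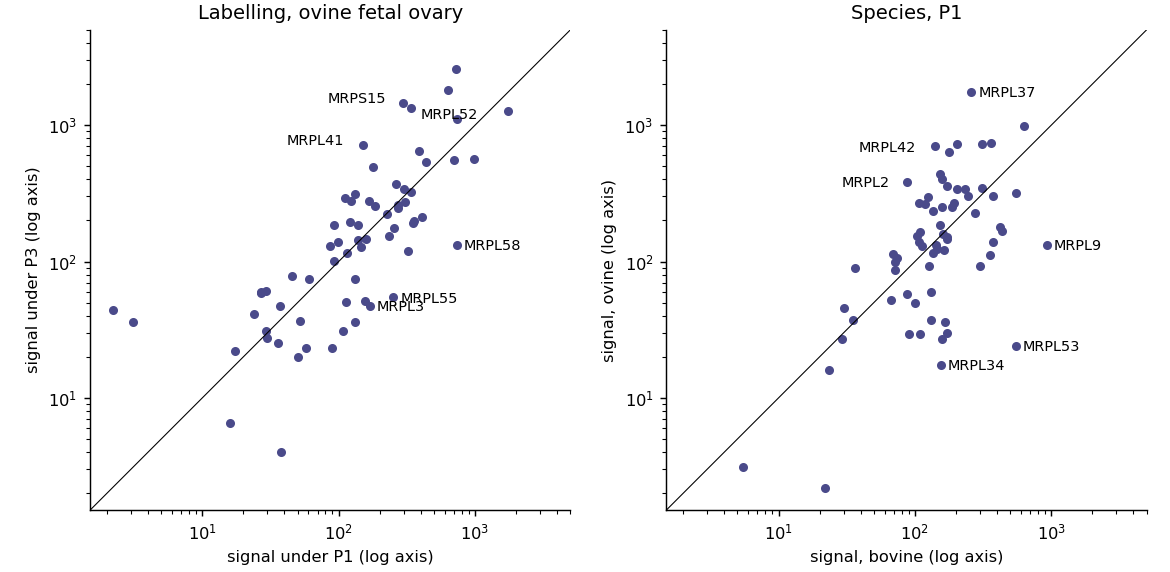
Signals of the 67 genes in fetal ovary on log axes, 1 array each; left, ovine ovary under P3 against P1, and right, ovine against bovine ovary under P1, with the line of equal signal. Named genes are the 3 with the largest differences in each direction, such as MRPS15 (298 under P1 and 1460 under P3) and MRPL53 (549 in bovine and 24.0 in ovine ovary).

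Set against fetal ovary under P3, and so under the same labelling, captured oocytes lay above the ovary for 44 of the 67 genes (all genes 55.7%), with a median of 0.41, and captured GC for 40 (54%), with a median of 0.16. All genes had medians of 0.10 and 0.075. In oocytes 10 genes were at least 2-fold higher than in fetal ovary (all genes 8.32%) and 4 lower (9.95%), and in GC 2 were higher (5.73%) and 4 lower (9.85%). Among genes chosen after their values were seen, MRPL22, a large subunit protein, read 10365, 11626 and 4339 in PDO, PMO and SECO and 5107, 8643 and 4528 in PDG, PMG and SECG, all above the 2574 of fetal ovary. MRPS14, a small subunit protein chosen in the same way, read 4964, 5054 and 1520 in oocytes and 2112, 2063 and 1677 in GC, and 1115 in fetal ovary. MRPL41 went the other way, by -3.43 in oocytes and -2.85 in GC. The ages, tissues and amounts of input RNA differ between these arrays, and the comparison was added after the data were seen.

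A further probe set of the same gene gave a rough check on these values. There were 8 other probe sets of these genes that were detected on a captured array. Their mean difference had the sign of the one used in 7 of 8 for compartment and 7 of 8 for stage, in 5 of 8 for species and in 2 of 8 for P3 against P1. MRPL20 shows the last case, since the probe set used read 989 under P1 and 562 under P3 and another one 328 and 349. Sizes lay close in some genes and far apart in others. The 2 probe sets of MRPL20 gave 0.40 and 0.38 for oocyte minus GC and -1.16 and -0.82 for secondary minus primordial, while those of MRPL57 gave -0.87 and -0.32, and 1.88 and 0.23. The probe set of MRPS14 is marked by the maker as shared by more than 1 transcript family, so its values may include another gene.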

How the data were processed

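The 10 deposited columns hold linear signal intensities that the authors made with GCOS and MAS5 (versions not given in the sources used here) and scaled to a target of 100 per array. Besides 112 controls there are 24016 probe sets, of which the chip annotation gives 13292 1 gene symbol, 86 several and 10638 none. Present calls were not used; a probe set counted as detected where it was among the brightest in the share of present calls that the study lists for that array. Intensities limit precision through the number of arrays, since no array has a replicate.

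A constant of 20 was added and log2 taken. limma 3.58.1 in R 4.3.3 was fitted to the 6 captured arrays with compartment and stage, over probe sets detected on at least 1 of them, with 2 degrees of freedom left in the residuals and 5.43 from the prior, and with Benjamini-Hochberg adjustment over all of them at 0.05. The stage term pairs the arrays of a stage. Fetal arrays were compared as single arrays. The scripts were tested on simulated data. Python 3.11.15 and matplotlib 3.10.9 made tables and figures.

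Members and lists were chosen with earlier results of these data known. Named genes are MRPL41, the 6 largest compartment and 4 largest stage differences of 1 sign in each direction, the 3 largest fetal differences in each direction, genes detected nowhere or in 1 compartment throughout, and the 4 largest of the mitochondrial gene expression list, which holds translation and assembly factors, 5 further ribosomal proteins and 5 genes of mitochondrial DNA replication or transcription. Alternatives were the constant, quantile normalization, the filter, the detection limit, a variance trend, no stage term, left-out stages, SECO left out and the mean of a gene's probe sets. Sequences were not used here.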

Additional observations from a re-analysis of the deposited data

Results flagged for a closer look

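In 9 of the 67 genes (13.4%) the compartments lay in opposite order at different stages, by at least 0.5 on the log2(signal + 20) scale each way, and in 19.9% of all genes. The differences below are oocyte minus GC. Each sets 1 array against 1 array, and the difference between stages was not tested.

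Higher in the oocyte at the primary and lower at the secondary stage were MRPL37 (1.29 and -0.59), MRPL32 (0.83 and -1.02), MRPL35 (0.63 and -0.78) and MRPS34 (1.96 and -0.79). MRPL32 in SECO (28.8) and MRPL35 in PMG (64.5) lay below the limit. For MRPS34 the signals in PMG (7.76) and SECO (57.5) also did. Its other probe set did not show the change of order. It read 80.4 in SECO and 50.3 in SECG, both above the limit, with the oocyte the higher. MRPL37 read 847 in PMO and 334 in PMG, and 243 in SECO and 376 in SECG, all above the limit of detection. MRPL55 differed by 1.85 at the primordial and by -0.61 at the secondary stage, and of its 4 signals there only that of PDO, 62.1, passed the limit. MRPS28 went from 1.13 at the primordial to -0.51 at the primary stage, and its PDG signal of 43.6 lay below the limit. In the other order, MRPS11 differed by -1.50 at the primary and 1.12 at the secondary stage, with a PMO signal of 45.2, below the limit. MRPS23 differed by -0.60 at the primordial and 0.58 at the secondary stage. MRPS18A, detected on no captured array, differed by -0.65 at the primordial and 1.14 at the primary stage.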

How the results depend on the processing

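Between compartments, limma called 0 of these genes under every alternative run, and the median of 0.31 lay between 0.22 (constant of 50) and 0.37 (constant of 1, or without SECO). Leaving out a stage gave 0.26 to 0.37 with 43 to 49 genes above 0. Without the stage term, and so with no replicate block, limma also called 0, with a smallest adjusted p of 0.558 among these genes; replicate numbers are 1 throughout and the stage is the only pairing. For stage, the count called went from 0 to 2 with a constant of 50, to 3 with the intensity trend and to 1 without the primary stage, an alternative added after the data were seen; these called 37, 67 and 18 probe sets in all. The median of -0.21 was 0.078 on GC arrays alone. For P3 minus P1, the constant of 50 gave 7 genes at least 2-fold higher in place of 11, and the median of 0.032 was 0.18 after quantile normalization, -0.051 with the mean of the probe sets and -0.0065 over genes with a signal of at least 100. For P2 minus P1, -0.047 became -0.16 with the mean of the probe sets and -0.15 over detected genes. For species, 0.054 became 0.17 after quantile normalization, 0.17 over detected genes and 0.22 at a signal of at least 100. The cause of these shifts was not tested. None of the ribosomal protein genes picked for the largest differences by compartment, stage, protocol or species changed sign under the alternatives run for it. The genes of the mitochondrial gene expression list and those detected on no captured array were not run. Neither were MRPL22, MRPS14 and the changes of order flagged above. Signals under about 50 to 75 on captured arrays are near background, which limits what MRPL12, MRPL41, MRPL55, MRPL57, MRPS25, MRPS34, SARS2 and AURKAIP1 can show. The same holds for single arrays of MRPL32, MRPL35, MRPS11, MRPS27 and MRPS28.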
